A study of Mus musculus with 6 samples.

Results

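Endoplasmic reticulum (ER) folding and stress genes were followed in mouse CD4+ T cells given LPC during T helper 1 (Th1) activation. They are 35 genes chosen by symbol, from knowledge of the pathway and with earlier results of these data known, out of 18046 genes listed. Each of the 35 was present and was tested. RNA came from naive CD4+ T cells of C57BL/6 mouse spleen, with an age of 3 weeks in the labels. The cells were stimulated in culture with antibodies to CD3 and CD28 for 3 days under Th1-polarizing conditions, which both groups shared. One group received a vehicle that the labels do not name (3 libraries), and the other 20 µM LPC, an agent that the labels do not spell out (3 libraries). The labels give no genotype beyond the strain. They leave unstated whether replicates are separate mice or cultures, and p-values then cover only the spread of these 6 samples, which may be technical.

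The ER is where secreted and membrane proteins enter the secretory route. Nascent chains pass the SEC61 translocon, fold with the help of chaperones, lectins and disulfide isomerases, and are sent back to the cytosol for destruction (ER-associated degradation, ERAD) when folding fails. When unfolded chains build up, 3 sensors, IRE1 (gene Ern1), ATF6 and PERK (gene Eif2ak3), start the unfolded protein response, which raises transcription of the folding and degradation genes, in part through the factor XBP1. Activated T cells, which begin to secrete cytokines in quantity, are known to use this response.

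Values are deposited FPKM, fragments per kilobase of transcript scaled to the mapped reads of the library. The scaling for length lets levels of different genes be set side by side, and a level is a share of its library and not an amount per cell. The test was limma on log2(FPKM + 1), LPC minus vehicle, over 10138 genes, and a gene was called at a Benjamini-Hochberg adjusted p under 0.05. Every log2 change below is on that scale and understates changes of low genes. Low values of genes with 1 transcript came nearest to whole reads at 18.75 to 19 M reads per library, an estimate of the depth. LPC replicate 3 stood apart from the other libraries. It lay at 21.10 on the first principal component (58.4% of the variance), against 3.03 and 10.84 for the other LPC libraries. Vehicle libraries lay at -15.76 to -8.43, so this component also separated the groups. The median deviation of 1006 long-transcript genes was -0.26 (log2) in LPC replicate 3, against -0.03 to 0.15 elsewhere.

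Differences in message level between LPC and vehicle were small for most of the 35 genes. Of the 35, 1 was called higher (Derl3) and 2 were called lower (Derl1 and Edem3), all in ERAD, and 32 did not pass. Over all tested genes 13.7% were called, 5.82% higher and 7.91% lower, and the members' share was 8.57%. With median centring, calls over all genes split into 646 higher and 571 lower, against 590 and 802. The median log2 change of the members was 0.04, against -0.04 for all tested genes, and the median size of change was 0.11 against 0.15. For 27 members (77.1%) the log2 change was smaller than 0.2 in size, as it was for 64.3% of all tested genes. The 95% interval lay wholly between -0.5 and 0.5 for 29 members, and for 77.3% of all tested genes. At an unadjusted p under 0.05 were 7 members (20.0%), against 30.1% of all tested genes, and the counts at that level given below for single roles are to be read against this share. The count of calls changed when 1 library was left out, and so did that over all genes. None was called when replicate 1 of vehicle, replicate 2 of vehicle or replicate 1 of LPC was missing, where 5.06%, 5.58% and 6.92% of all genes were called (limma, with 2, 3 and 6 members at an unadjusted p under 0.05, against 22.4%, 20.6% and 26.3% of all genes). With replicate 3 of vehicle missing, 1 member was called (2.86%, against 9.38% of all genes). With replicate 2 of LPC missing it was 6 members (17.1%, against 20.0%), and with replicate 3 of LPC missing 2 members (5.71%, against 11.3%). Each of these fits tested the 10138 genes chosen on all 6 libraries, so Derl3 stayed in when an LPC library was missing. In bulk RNA, fewer cells of a type and less RNA per cell cannot be told apart.

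**Figure D1:**
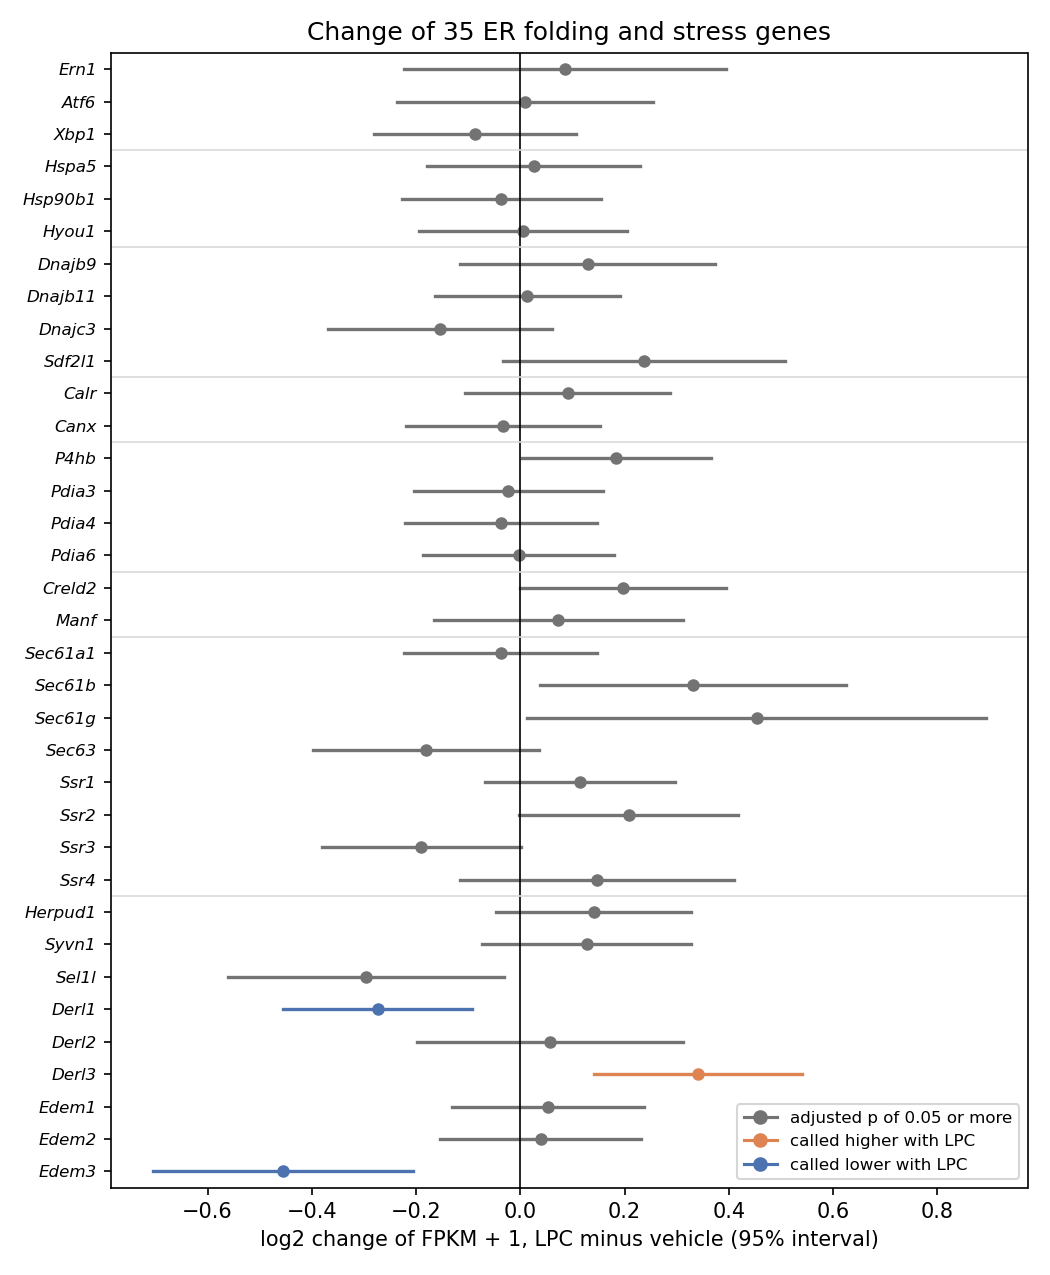
Log2 change of FPKM + 1, LPC minus vehicle (horizontal axis), for the 35 genes in rows grouped by role, with 95% intervals from limma (n = 3 libraries a group). Blue marks genes called lower, orange the gene called higher and grey those with an adjusted p of 0.05 or more. The called genes Derl1 (-0.27), Edem3 (-0.46) and Derl3 (0.34) are shown beside Sec61g (0.45), Sec61b (0.33) and Sel1l (-0.30), which lie farther from 0 than Derl1, have wider intervals and did not pass.

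Many of these genes share a promoter element that ATF6 is known to bind together with the factor NF-Y. The ER stress element consists of CCAAT and CCACG 9 bases apart. RefSeq promoter windows of GRCm38.p6 (250 bases before to 50 after a gene's start) were at hand for 29 of the 35 genes, and Atf6, Hyou1, Manf, Sec61a1, Ssr2 and Derl1 had no entry. On either strand, 9 of the 29 genes (31.0%) held the exact element, against 0.119% of all 32851 windows. Here and for the motifs below, shares of genes stand beside shares of windows. The members were chosen from knowledge of the pathway, so these shares are a description and not a test. The 10 elements of these 9 genes are printed because chaperone genes that did not pass share them with Derl3, the 1 member called higher. Each is shown in its own direction with 12 bases on either side, and capitals mark the CCAAT and CCACG parts.
Hspa5 (chr2:34772013-34772055, plus strand): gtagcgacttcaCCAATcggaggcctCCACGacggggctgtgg
Hsp90b1 (chr10:86705521-86705563, plus strand): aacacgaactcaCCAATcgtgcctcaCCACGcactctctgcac
Hsp90b1 (chr10:86705626-86705668, minus strand): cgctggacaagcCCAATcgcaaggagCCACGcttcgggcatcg
Dnajc3 (chr14:118937815-118937857, plus strand): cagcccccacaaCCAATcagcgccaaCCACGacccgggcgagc
Calr (chr8:84847063-84847105, plus strand): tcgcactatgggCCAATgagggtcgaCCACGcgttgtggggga
Canx (chr11:50325788-50325830, minus strand): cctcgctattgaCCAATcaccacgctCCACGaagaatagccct
Pdia6 (chr12:17266479-17266521, plus strand): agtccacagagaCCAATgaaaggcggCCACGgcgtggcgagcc
Creld2 (chr15:88819508-88819550, minus strand): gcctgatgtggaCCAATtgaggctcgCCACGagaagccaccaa
Syvn1 (chr19:6046520-6046562, plus strand): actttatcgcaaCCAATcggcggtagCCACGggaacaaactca
Derl3 (chr10:75893230-75893272, minus strand): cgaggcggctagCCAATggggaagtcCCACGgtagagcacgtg

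The second form of the element, ATTGG and CCACG 1 base apart, was found in Herpud1 and Dnajb11, 2 of the 29 genes, against 0.0365% of all windows. The Herpud1 copy lies 52 to 42 bases before the start and is shown with its parts in capitals, as a member of the ERAD machinery whose level changed little.
Herpud1 (chr8:94386365-94386399, plus strand): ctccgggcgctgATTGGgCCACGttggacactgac

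Whole upstream stretches are printed for Hspa5, the classic target of the response, and Derl3. Capitals in Hspa5 mark the ER stress element and, farther from the start, TGACGTG, a motif of XBP1 and ATF6 that 2.01% of all windows held and that no other matched member held. In Derl3 the capitals mark the element, which there reads on the opposite strand. These motifs do not overlap one another. The core of the amino acid response element, TGATG and AAT 1 base apart, was in 0.965% of all windows and in none of the 29 members' windows.
Hspa5 (chr2:34771840-34772089, plus strand): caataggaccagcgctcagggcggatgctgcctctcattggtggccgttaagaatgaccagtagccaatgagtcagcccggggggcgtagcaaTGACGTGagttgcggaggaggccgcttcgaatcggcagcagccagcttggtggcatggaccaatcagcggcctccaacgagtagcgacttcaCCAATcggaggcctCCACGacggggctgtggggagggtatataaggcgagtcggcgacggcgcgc
Derl3 (chr10:75893148-75893397, plus strand): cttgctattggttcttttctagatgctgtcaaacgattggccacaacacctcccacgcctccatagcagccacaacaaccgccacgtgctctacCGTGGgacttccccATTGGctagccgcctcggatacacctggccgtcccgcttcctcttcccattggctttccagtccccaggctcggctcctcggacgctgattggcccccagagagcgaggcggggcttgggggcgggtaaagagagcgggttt

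Messages of the genes with the exact ER stress element did not move as a block. Log2 changes of the 9 genes ran from -0.15 to 0.34 with a median of 0.03, and apart from Derl3 they stayed between -0.15 (Dnajc3) and 0.20 (Creld2), without a call. The other 20 genes in the promoter table, among them Herpud1 and Dnajb11 with the second form, had a median of 0.06 and 1 call, Edem3. Among the 32851 windows searched, 37 genes had one with the exact element, and 16 of those were tested. Derl3 was the 1 gene called, at 0.67 to 1.19 FPKM, and it entered the test only through its LPC libraries. A match of letters describes the window and does not show that a factor binds there.

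The sensors and their main transcription factor gave no call (0 of 3 at an unadjusted p under 0.05 by limma). Ern1 encodes IRE1, the kinase and nuclease that splices Xbp1 RNA. It was listed at 5.38, 5.90 and 5.09 FPKM in vehicle replicates 1 to 3 and at 6.78, 6.94 and 4.19 FPKM in LPC replicates 1 to 3 (log2 change 0.09, 95% interval -0.22 to 0.39, limma adjusted p = 0.726). The groups overlapped, with LPC replicate 3 the lowest of all and the other LPC libraries the highest. Without LPC replicate 3 the log2 change of Ern1 was 0.29 (limma adjusted p = 0.0766), which did not pass. Atf6, the sensor that is cut in the Golgi to release a transcription factor, stood at 15.3, 18.1 and 15.2 FPKM with vehicle and at 16.6, 18.7 and 13.8 FPKM with LPC. Its log2 change was 0.01 (interval -0.24 to 0.25, limma adjusted p = 0.971). The groups overlapped, with LPC replicate 3 below and LPC replicate 2 above every vehicle library. Xbp1 was far more abundant, at 100.5, 98.8 and 110.6 FPKM with vehicle and 91.3, 96.0 and 104.3 FPKM with LPC. Its change of -0.09 (interval -0.28 to 0.11, limma adjusted p = 0.543) was within the spread of the libraries. Values per gene do not separate spliced from unspliced Xbp1 RNA, so the activity of IRE1 was not measured.

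Chaperones of the ER lumen included some of the most abundant members, and none was called. Hspa5 encodes BiP, the ER Hsp70 that holds unfolded chains and restrains the sensors. It was listed at 333.2, 330.2 and 336.4 FPKM with vehicle and at 345.2, 365.3 and 309.6 FPKM with LPC. The vehicle libraries sat close together inside the range of the LPC libraries, whose lowest was replicate 3. The log2 change was 0.03 (SE 0.09, interval -0.18 to 0.23, limma adjusted p = 0.884). Hsp90b1, which encodes the ER Hsp90 protein GRP94, read 169.0, 184.7 and 176.4 FPKM with vehicle and 175.1, 180.2 and 161.8 FPKM with LPC (-0.04, interval -0.23 to 0.15, limma adjusted p = 0.821). Hyou1, a nucleotide exchange factor for BiP, had a log2 change of 0.01, with means of 45.3 ± 0.506 FPKM for vehicle and 45.7 ± 4.70 FPKM for LPC (SD, n = 3 libraries a group, as for every ± below). None of these 3 chaperones had an unadjusted p under 0.05.

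J-domain partners direct BiP to its tasks, and none of the 4 genes in this group was called by limma or had an unadjusted p under 0.05. Dnajb9, which encodes ERdj4 and is a known target of XBP1, was low at 7.79, 8.40 and 7.58 FPKM with vehicle and 7.25, 9.20 and 10.02 FPKM with LPC. The lowest value of all 6 was LPC replicate 1, so the groups overlapped (log2 change 0.13, interval -0.12 to 0.37, limma adjusted p = 0.469). Dnajb11 had the narrowest range of all members, with its highest library 1.07 times its lowest. Dnajc3, which encodes an inhibitor of the kinase PERK, had a log2 change of -0.15. Sdf2l1, a partner of Dnajb11 in the lumen, averaged 19.4 ± 1.79 FPKM in the vehicle group and 23.3 ± 4.38 FPKM in the LPC group (log2 change 0.24, limma adjusted p = 0.221), and LPC replicate 2, at 18.2, lay inside the vehicle range. Without LPC replicate 2, Sdf2l1 passed (log2 change 0.40, limma adjusted p = 0.0212).

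Lectin chaperones bind sugar-tagged chains and hold them for folding. Calr, which encodes calreticulin, was the most abundant member, at 338.4, 357.0 and 327.1 FPKM with vehicle and 379.1, 362.4 and 348.0 FPKM with LPC. LPC replicate 3 lay inside the vehicle range and the other LPC libraries above it (log2 change 0.09, interval -0.11 to 0.29, limma adjusted p = 0.530). Canx, its membrane-bound relative calnexin, averaged 91.0 ± 2.40 and 89.0 ± 5.74 FPKM (-0.03). Neither had an unadjusted p under 0.05.

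Of the 4 disulfide isomerases, which form and rearrange disulfide bonds, none was called by limma and 1 had an unadjusted p under 0.05. That gene was P4hb, which encodes protein disulfide isomerase itself. It read 203.1, 194.6 and 197.9 FPKM with vehicle and 222.5, 227.5 and 227.1 FPKM with LPC, and the groups did not overlap. The difference did not pass over all genes (log2 change 0.18, SE 0.08, limma adjusted p = 0.161). Log2 changes were -0.02 for Pdia3, -0.04 for Pdia4 and -0.00 for Pdia6. Pdia3 serves glycoproteins held by the lectins, and averaged 142 ± 3.73 and 140 ± 5.72 FPKM.

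Creld2 and Manf encode small ER proteins known for their release under ER stress. Neither was called or had an unadjusted p under 0.05 by limma. Creld2 read 15.7, 14.8 and 15.8 FPKM with vehicle and 18.3, 16.4 and 18.9 FPKM with LPC, without overlap but short of the threshold (log2 change 0.20, limma adjusted p = 0.167). Manf was listed at 79.6, 74.3 and 79.1 FPKM with vehicle and at 70.5, 78.7 and 98.2 FPKM with LPC. LPC libraries held both the lowest and the highest value of Manf, so the groups overlapped (0.07, limma adjusted p = 0.697).

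**Figure D2:**
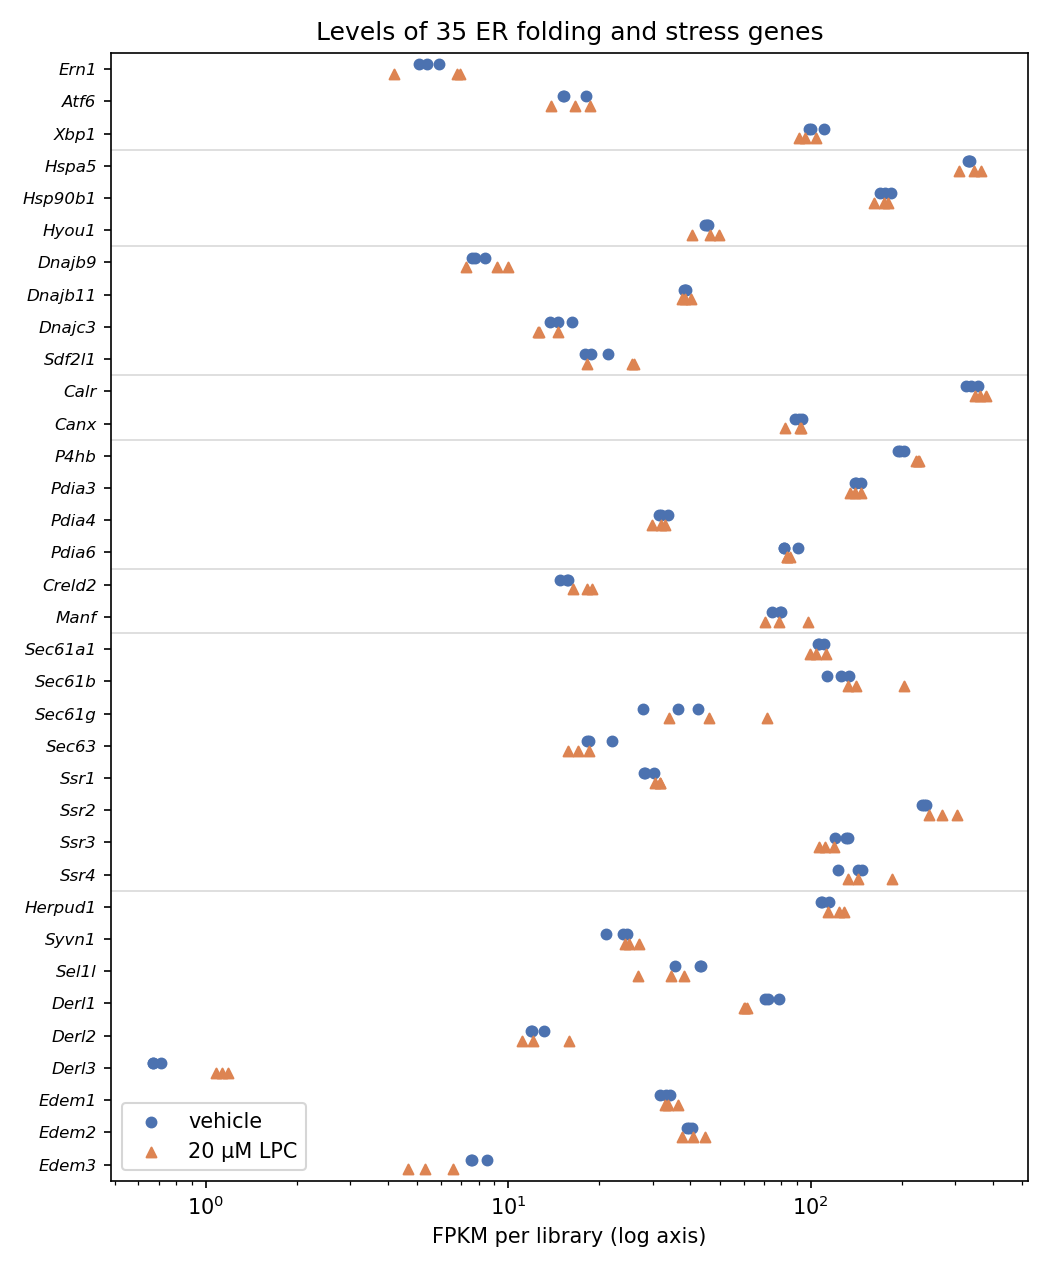
FPKM of the 35 genes in each library on a log axis, with circles for vehicle and triangles for 20 µM LPC (3 libraries each) and grey lines between roles. Calr and Hspa5 sit highest, at over 300 FPKM in every library, and Derl3 lowest, at 0.67 to 1.19 FPKM.

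None of the 8 translocon genes was called by limma (2 had an unadjusted p under 0.05), and Sec61g had the widest range of all members, with its highest library 2.57 times its lowest. Sec61a1 encodes the channel itself and averaged 108 ± 2.65 FPKM in the vehicle group and 105 ± 6.52 FPKM in the LPC group (log2 change -0.04, limma adjusted p = 0.807). Sec61b and Sec61g encode the small subunits of the channel. Sec61b read 126.3, 113.0 and 133.6 FPKM with vehicle and 141.0, 133.0 and 203.4 FPKM with LPC (log2 change 0.33, limma adjusted p = 0.122). Sec61g read 36.3, 27.8 and 42.5 FPKM with vehicle and 46.2, 34.1 and 71.4 FPKM with LPC (0.45, interval 0.01 to 0.89, limma adjusted p = 0.155). In both, LPC replicate 3 was far the highest library and LPC replicate 2 lay inside the vehicle range. Without LPC replicate 3 the log2 change was 0.14 for Sec61b and 0.18 for Sec61g. Without LPC replicate 2, Sec61g passed at a log2 change of 0.70 (limma adjusted p = 0.0314).

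The translocon-associated protein complex, which helps chains insert, gave changes of either sign among its subunits. Ssr2 averaged 237 ± 3.82 FPKM in the vehicle group and 274 ± 29.4 FPKM in the LPC group (log2 change 0.21, limma adjusted p = 0.170), and Ssr1 had a log2 change of 0.11. Ssr3 ran the other way, with a mean of 112 ± 6.67 FPKM against 128 ± 6.58 for vehicle (-0.19, limma adjusted p = 0.167). These 3 subunits, of the 8 translocon genes, had groups that did not overlap, against 34.5% of all tested genes. For Ssr1 the margin was 30.4 against 30.5 FPKM, and none of the 3 passed. Ssr4 had overlapping groups and a log2 change of 0.15, with its highest value, 186.0 FPKM, in LPC replicate 3. Sec63, which recruits BiP to the channel, had a log2 change of -0.18 (limma adjusted p = 0.245).

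ERAD held all 3 calls, 1 higher and 2 lower, among its 9 genes. By limma 4 of the 9 had an unadjusted p under 0.05. Over all tested genes 13.7% were called and 30.1% had an unadjusted p under 0.05. Edem3 encodes a protein of the EDEM family, which trims mannose from misfolded glycoproteins and so marks them for destruction. It was listed at 7.57, 8.53 and 7.53 FPKM with vehicle and at 5.30, 6.59 and 4.65 FPKM with LPC. Every LPC library lay below every vehicle library, and LPC replicate 3 was the lowest. Edem3 fell by 0.46 on the log2 scale (SE 0.12, interval -0.70 to -0.21, limma adjusted p = 0.0215). The call was lost on leaving out replicate 1 of either group (adjusted p = 0.0633 for vehicle and 0.0825 for LPC) or replicate 2 of vehicle (0.0841), and with no filter on low values (0.101), at log2 changes of -0.48 to -0.40 in those fits. Among its relatives, Edem1 averaged 33.1 ± 1.28 and 34.3 ± 1.80 FPKM (0.05), and Edem2 39.7 ± 0.836 and 40.9 ± 3.55 FPKM (0.04), and neither passed. Whether the 3 genes' changes differ from one another was not tested. Edem3 lies on chromosome 1 of GRCm38.p6 at 151755344 to 151822328.

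Derl1 and Derl3 belong to the derlins, membrane proteins of the channel through which ERAD substrates leave the ER. Derl1 read 78.6, 70.6 and 72.4 FPKM with vehicle and 60.1, 60.8 and 61.7 FPKM with LPC. LPC libraries sat close together, all below the vehicle libraries. Derl1 fell by 0.27 on the log2 scale (SE 0.08, interval -0.45 to -0.09, limma adjusted p = 0.0459), which is just inside the threshold. The call was lost on leaving out any vehicle library (adjusted p = 0.226 without replicate 1, 0.119 without replicate 2 and 0.101 without replicate 3) or LPC replicate 1 (0.101), with no filter on low values (0.0625) and with median centring (0.0960). The log2 change in those fits was -0.31 to -0.23. Derl2 had overlapping groups (log2 change 0.06, limma adjusted p = 0.785), with LPC replicate 3 highest at 15.9 FPKM. Derl1 lies on chromosome 15 at 57869502 to 57892418 and Derl3 on chromosome 10 at 75893398 to 75895941.

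Derl3, a derlin known for its high level in secretory cells, was the scarcest member. It read 0.67, 0.71 and 0.67 FPKM with vehicle and 1.13, 1.08 and 1.19 FPKM with LPC, and the groups did not overlap. Derl3 rose by 0.34 on the log2 scale (SE 0.09, interval 0.14 to 0.54, limma adjusted p = 0.0290), and by 0.65 with a pseudocount of 0.1 in place of 1. It entered the test only through the 3 LPC libraries, which were the ones at 1 FPKM or more, and it passed as well with no filter on low values (adjusted p = 0.0307). At the estimated depth, and if reads came from its longest transcript (1321 bases), these values stand for about 17 to 29 reads a library. The call was lost on leaving out any vehicle library (adjusted p = 0.102 without replicate 1, 0.0871 without replicate 2 and 0.0686 without replicate 3), or of the LPC libraries replicate 1 (0.0703) or replicate 3 (0.0640), and with GC and length trends taken out (0.0871). The log2 change was 0.32 to 0.36 in the fits that left out a library and 0.24 with the trends taken out. Fits that left out a library kept the genes chosen on all 6 libraries. With an LPC library missing, Derl3 would not have met the filter of 1 FPKM in at least 3 libraries.

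**Figure D3:**
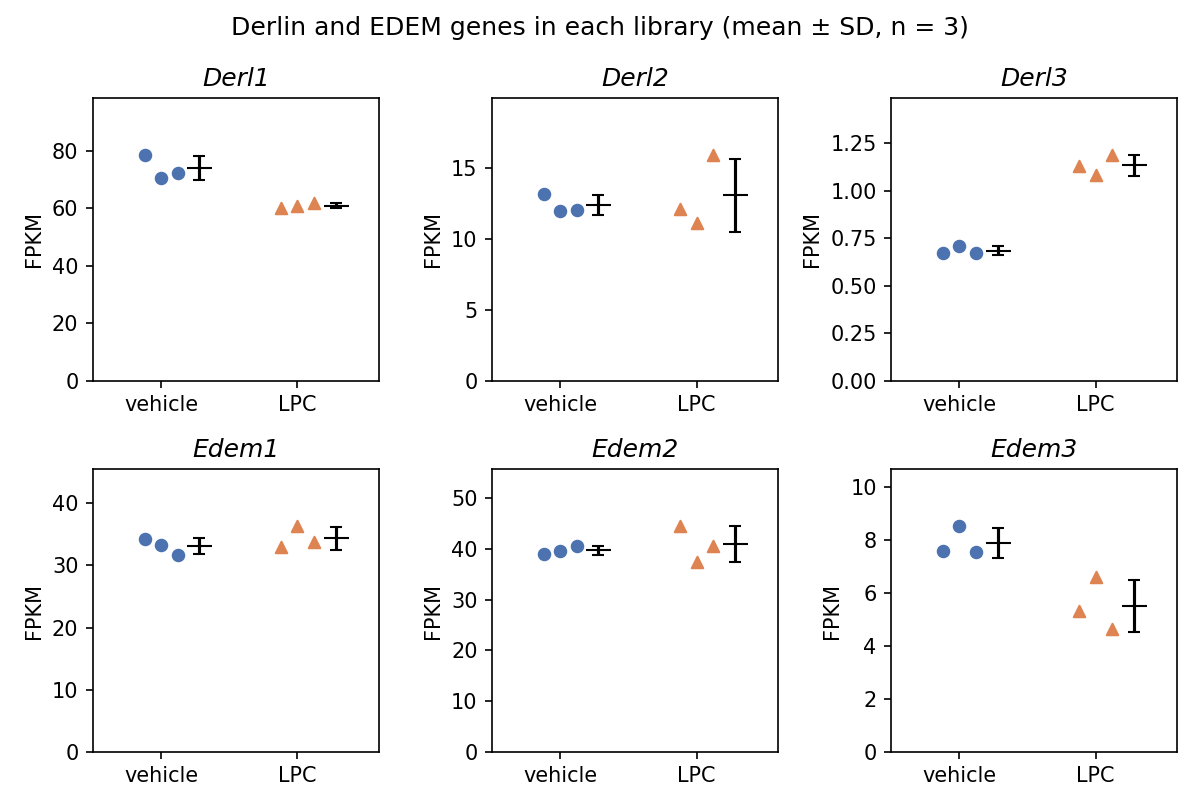
FPKM of the derlin and EDEM genes in each library, with circles for vehicle, triangles for LPC, and the mean ± SD (n = 3) beside them on axes that start at 0. Derl1 and Edem3 are lower in all LPC libraries, Derl3 is higher in all of them at about 1 FPKM, and Derl2, Edem1 and Edem2 overlap.

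The other ERAD members did not pass. Herpud1, a scaffold of the degradation complex and a known target of the stress response, read 115.1, 108.3 and 108.6 FPKM with vehicle and 128.4, 124.4 and 114.0 FPKM with LPC. LPC replicate 3 overlapped the vehicle range (log2 change 0.14, interval -0.05 to 0.33, limma adjusted p = 0.294). Syvn1, which encodes the ubiquitin ligase HRD1, had a log2 change of 0.13. Sel1l, which encodes the partner of HRD1, read 43.1, 43.4 and 35.5 FPKM with vehicle and 34.5, 38.1 and 26.8 FPKM with LPC. Vehicle replicate 3 overlapped the LPC range, and the change of -0.30 did not pass (interval -0.56 to -0.03, limma adjusted p = 0.126). Without LPC replicate 2 Sel1l passed (-0.40, adjusted p = 0.0483), and without LPC replicate 3 the change was -0.15.

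Groups did not overlap for 8 of the 35 members (22.9%), 5 higher and 3 lower with LPC, against 34.5% of all tested genes. Beside the called genes these were P4hb, Creld2, Ssr1, Ssr2 and Ssr3. The summed FPKM of the 35 genes was 2884 to 2923 in vehicle libraries and 2995 to 3095 in LPC libraries, and their share of all listed FPKM was 0.497% to 0.518% and 0.483% to 0.533%.

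Across the 35 genes the change went with transcript length, as it did over all genes. The 7 members whose longest GENCODE transcript is under 2000 bases (Sdf2l1, Creld2, Sec61b, Sec61g, Ssr2, Herpud1 and Derl3) all had positive log2 changes, with a median of 0.24. The 8 members over 5000 bases had a median of -0.07, with Edem3, Sel1l, Sec63 and Dnajc3 negative and Ern1, Atf6, Ssr1 and Edem1 positive. Over all tested genes these medians were 0.07 and -0.12. Pearson's r between the log2 change and log2 length was -0.58 across the 35 genes (Spearman's rho -0.56), which share the same 6 libraries, and -0.29 across 10053 tested genes. Without LPC replicate 3 it was -0.33 and -0.09. The longest transcript need not be the one in use. Each library's trend with GC share and length was then removed, an alternative chosen after seeing the data. Calls over all tested genes rose to 20.5% from 13.7%, against 5.71% of the members. Derl1 (-0.24, limma adjusted p = 0.0270) and Edem3 (-0.31, adjusted p = 0.0117) passed in that fit, and Derl3 did not (0.24). The median of the short members was 0.12 there.

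**Figure D4:**
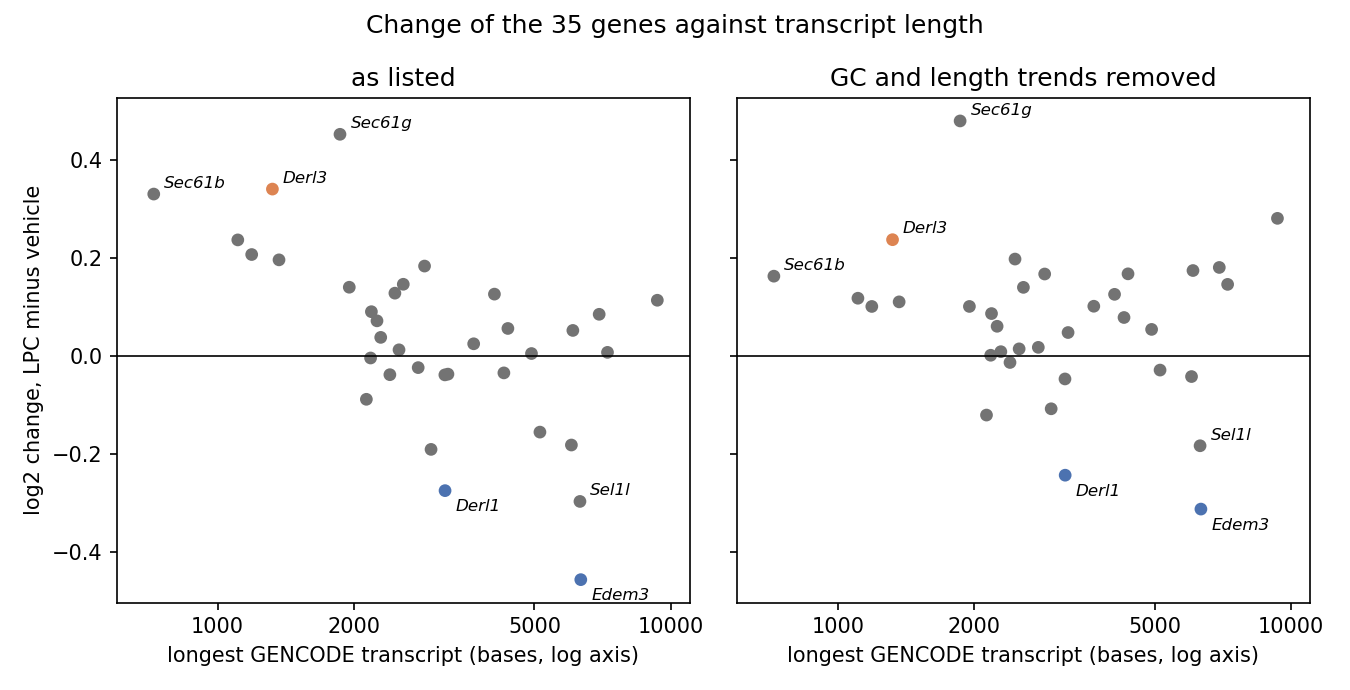
Log2 change (LPC minus vehicle) of the 35 genes against the length of the longest GENCODE transcript in bases (log axis), as listed (left) and after removal of each library's trends with GC share and length (right). Points are genes, with orange for the gene called higher and blue for those called lower in the values as listed. On the left the short genes lie above 0 and Edem3 and Sel1l below, and on the right the slope is flatter (r = -0.20).

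Further ER genes outside the 35 were arranged in 8 lists with 137 tested genes, of which 4 were called higher and 7 lower (8.03%, against 13.7% of all tested genes). Their median log2 change was -0.05. In the PERK and ATF4 arm, which halts translation and raises stress genes, 1 of 14 genes was called. By limma 5 of the 14 had an unadjusted p under 0.05, against 30.1% of all tested genes. Atf5, a transcription factor of this arm, rose to a mean of 128 ± 4.61 FPKM from 100 ± 13.1 (log2 change 0.36, limma adjusted p = 0.0344), but did not pass with quantile normalization (0.31, adjusted p = 0.0782) or with GC and length trends taken out (0.28, adjusted p = 0.0939). The sensor kinase gene Eif2ak3 read 8.87, 9.03 and 8.23 FPKM with vehicle and 7.67, 7.92 and 6.70 FPKM with LPC, without overlap, and did not pass (-0.21, limma adjusted p = 0.176). Atf4 stood at 634 ± 13.5 and 672 ± 11.01 FPKM (0.08, interval -0.12 to 0.29, limma adjusted p = 0.580). Ddit3, which encodes the death-linked factor CHOP, stood at 189 ± 7.65 and 202 ± 10.05 FPKM (0.09, interval -0.10 to 0.28, limma adjusted p = 0.506).

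Among 10 further regulators 1 was called higher and 2 lower, and 5 had an unadjusted p under 0.05 by limma. Over all tested genes 13.7% were called and 30.1% had such a p. Creb3 and Creb3l2 encode membrane-bound factors that are released by cleavage much as ATF6 is. Creb3 rose by a log2 change of 0.31 (limma adjusted p = 0.0481), and Creb3l2 fell to a mean of 18.7 ± 3.26 FPKM from 26.5 ± 1.34 (-0.49, limma adjusted p = 0.0143). Their relative Creb3l1, under the level set for naming and added after its value was seen, fell to a mean of 1.56 ± 0.101 FPKM from 2.27 ± 0.115. Among 23 other folding factors of the lumen 2 were called lower, the thioredoxin-like gene Txndc12 (-0.28, limma adjusted p = 0.0407) and the prolyl isomerase gene Fkbp7. Fkbp7, also low and added after its value was seen, fell to a mean of 0.933 ± 0.131 FPKM from 1.84 ± 0.277.

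Of 25 further ERAD genes 1 was called. Herpud2, a relative of Herpud1, fell to a mean of 16.6 ± 1.08 FPKM from 22.4 ± 0.677 (log2 change -0.41, limma adjusted p = 0.0103). The 12 oligosaccharyltransferase genes, whose products attach sugar chains, gave 1 call, the small subunit gene Ost4 (0.41, limma adjusted p = 0.0388). Of 20 targeting, signal peptidase and other translocon genes 1 was called, Asna1, which encodes an ATPase that delivers tail-anchored proteins (0.28, limma adjusted p = 0.0479). Of 23 genes of the COPII coat and ER export 2 fell, the coat genes Sec23a (-0.37, limma adjusted p = 0.0331) and Sec24d (-0.39, limma adjusted p = 0.0192). None of 10 glucose trimming and calnexin cycle genes was called by limma, with 2 at an unadjusted p under 0.05. Such counts were 3 of 23 other folding factors and 5 of 25 further ERAD genes. They were 3 of 12 oligosaccharyltransferase genes, 4 of 20 targeting genes and 4 of 23 COPII and export genes. Of these 11 calls, Creb3l2, Fkbp7 and Herpud2 were kept whichever library was left out. In all, 3 were kept without any 1 of the vehicle replicates, 4 without LPC replicate 1, 11 without LPC replicate 2, 6 without LPC replicate 3 and 2 (Fkbp7 and Herpud2) with no filter on low values. Quantile normalization kept 8 (without Atf5, Asna1 and Creb3l1), median centring 8 (without Ost4, Txndc12 and Asna1), and removal of the GC and length trends 9 (without Atf5 and Asna1).

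The 8 CD4 T cell markers that were found summed to 1982 to 2016 FPKM with vehicle and 1920 to 2027 with LPC. Cd3e was at 91.2 to 110.1 FPKM and Cd4 at 143.9 to 205.2 FPKM in every library, and Cd4 did not pass (log2 change -0.27, limma adjusted p = 0.0875). Cd8a was at 0.18 to 0.33 FPKM, while Cd8b1 was at 10.6 to 14.2. Plasma cells carry much ER, and of their 7 listed markers Jchain was at most 0.05 FPKM, Tnfrsf17 at most 0.07 and Mzb1 at most 0.51, while Irf4, which activated T cells also express, was at 231.0 to 304.3 FPKM. That list summed to 292 to 310 FPKM with vehicle and 238 to 297 with LPC. Of its 4 tested genes Prdm1, a gene of T cells as well, rose to a mean of 2.48 ± 0.255 FPKM from 1.14 ± 0.165 (log2 change 0.70, limma adjusted p = 0.00158), and Sdc1 fell (-0.36, adjusted p = 0.0321). The 7 B cell markers summed to 1.17 to 1.21 FPKM with vehicle and 0.60 to 0.97 with LPC. The 4 neutrophil markers that were found summed to at most 0.10 FPKM in any library. Not every planned CD4 T cell and neutrophil marker was found among the genes listed. The 6 macrophage and monocyte markers summed to 3.52 to 5.59 and 3.32 to 4.84 FPKM, the 5 dendritic cell markers to 2.87 to 2.94 and 1.30 to 1.64, and the 4 natural killer cell markers to 6.31 to 8.78 and 5.21 to 5.50. The 4 erythroid markers summed to 0.15 to 0.23 and 0.29 to 0.62 FPKM, and the 4 fibroblast and endothelial markers to 5.13 to 6.18 and 5.92 to 7.01. In the dendritic cell list Zbtb46 fell (-0.68), and in the natural killer cell list Eomes, which T cells also express, fell (-0.49), each the single tested gene of its list by limma. Of the neutrophil and of the natural killer cell markers, 1 each was at 0 in every library. The part of these cells in the ER gene results was not tested.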

How the data were processed

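Expression was measured by RNA sequencing in 6 libraries, 3 with vehicle and 3 with 20 µM LPC, grouped by the agent in the labels. Reads from a BGISEQ-500 were aligned to GRCm38 with Bowtie2 and turned into FPKM by RSEM, per the labels' protocols. No tool version, setting or annotation release is named in the sources used here. The deposited FPKM values are rounded to hundredths. RSEM divides reads shared by similar genes by estimate. The depth estimate compared values of 0.03 to 0.3 FPKM with whole reads, in steps of 0.25 M.

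The computed part used limma 3.58.1 (limma-trend) in R 4.3.3 on log2(FPKM + 1) of the 10138 genes that reached an FPKM of 1 in at least 3 libraries, with group as the single term and Benjamini-Hochberg adjustment over all of them. The fit was also run on simulated data with independent noise and with added changes larger than that of any member in the main fit. That run does not cover changes of the members' size or at the level of Derl3, nor effects shared between libraries. Gene symbols that had become dates (24) were restored by identifier, and 99.3% of identifiers matched the RefSeq table of GRCm38.p6, which gave coordinates. Promoter windows and their sequences are from RefSeq (GRCm38.p6), and transcript lengths and GC share from GENCODE (GRCm38). Protein sequences were not used here.

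The members, lists and tests were chosen with earlier results of these data known. All 35 members were named. From each further list, up to 3 called genes with the largest change whose higher group averaged at least 5 FPKM were named, with Atf4, Ddit3 and Eif2ak3 whatever their result.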

Additional observations from a re-analysis of the deposited data

How the results depend on the processing

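The 13 alternatives were a pseudocount of 0.1, testing every gene above 0, testing only genes averaging at least 5 FPKM, quantile normalization, median centring, the replicate block, leaving out each library, and removal of GC and length trends, the last chosen after seeing the data. Over all genes 1392 were called, 464 with no filter, where 16899 genes were tested, and 2056 with GC and length trends taken out. Leaving out 1 library gave 513 to 2026 calls, with the 10138 genes chosen on all 6 libraries and the filter not applied again. Among the 35 genes, higher calls (1 gene) numbered 0 among genes averaging at least 5 FPKM, which leaves out Derl3, and 0 once GC and length trends were taken out (limma, with 3 and 6 higher at an unadjusted p under 0.05), and 0 to 3 on leaving out 1 library. Lower calls (2 genes) numbered 0 with no filter (3 at an unadjusted p under 0.05), 1 with median centring, and 0 to 3 on leaving out 1 library. The cause was not tested. The median log2 change (0.04) was 0.0166 with quantile normalization, 0.0863 with median centring, 0.0875 with GC and length trends taken out and 0.0121 to 0.0409 on leaving out 1 library. None of the 454 single-gene values changed the direction of a call, and 35 values of genes without a call changed sign.

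Deviations of same-numbered vehicle and LPC libraries correlated at 0.02, 0.56 and 0.41. Vehicle replicate 2 with LPC replicate 3 gave -0.50, and vehicle replicate 3 with LPC replicate 2 gave -0.45. Vehicle replicate 1 gave -0.09 with LPC replicate 2 and 0.06 with LPC replicate 3. No label says that the numbers pair samples, so the main fit did not use them. Whether same-numbered libraries share a source was not tested. With the replicate block 2841 genes were called (28.0%), and 7 of the 35 members (20.0%). Of these members 4 were higher (Derl3, Sec61b, Sec61g and Sdf2l1) and 3 lower (Derl1, Edem3 and Sel1l). Limma adjusted p was 0.0112 for Sec61b, 0.00171 for Sec61g and 0.00904 for Sel1l in that fit, and Sdf2l1 lay at the threshold.

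Depth limits Derl3, at an estimated 17 to 29 reads a library.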
